A study of Mus musculus with 56 samples.

Results

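Arntl (Bmal1), Clock and Npas2, the activating transcription factors of the mammalian circadian clock, were taken by symbol from the heart expression table, as 3 of the 22864 genes listed. All 3 lay above the minimum of 1 TPM (a transcript level corrected for gene length and scaled to library size) on average over the 56 libraries, and so were tested among 13890 genes. The study asked how inverted feeding resets daily rhythms. Hearts of adult female C57BL/6J mice, 9 weeks of age and housed in 12 h of light and 12 h of darkness, were collected after 7 days in which food was given only in the daytime (DRF) or only at night (NRF). Both regimens were sampled at zeitgeber times (ZT, in hours from the onset of light) 0, 4, 8, 12, 16, 20 and 24, with 4 polyA RNA libraries in each of the 14 groups. No genetic change was involved, NRF served as the reference, and neither regimen is free access to food. The labels do not say that each library is a separate mouse, so all p-values measure only the spread between these libraries. RNA came from hearts, so fewer cells of a type and less RNA per cell cannot be told apart.

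BMAL1, the protein of Arntl, pairs with CLOCK or with its paralogue NPAS2 through bHLH-PAS domains, and the pair binds E-box sequences to switch on Per, Cry and Nr1d genes. PER and CRY proteins then repress the pair, and the nuclear receptors REV-ERBα and REV-ERBβ (Nr1d1 and Nr1d2) repress Arntl, Clock and Npas2 themselves, at DNA elements that ROR receptors use to activate. In the heart this clock is known for the daily timing of metabolism, and loss of Bmal1 from cardiomyocytes is known to impair both the rhythm and cardiac function.

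In the annotation of the GRCm38 build, Arntl (ENSMUSG00000055116) lies on chromosome 7 from 113207465 to 113314126 on the plus strand, with 7523 exonic bases. Clock (ENSMUSG00000029238) lies on chromosome 5 from 76209868 to 76304792 on the minus strand, with 13727 exonic bases. Npas2 (ENSMUSG00000026077) lies on chromosome 1 from 39193731 to 39363236 on the plus strand, with 4791 exonic bases. Arntl shares 33 exonic bases with the antisense gene Gm45355, and annotated genes that overlap Clock or Npas2 share 0 exonic bases with them. A promoter window, 300 bases around a RefSeq start site in GRCm38.p6, was found for 3 of the 3 genes and is printed because their levels went up and down together over the day. Capitals mark the REV-ERB and ROR element GTAGGTCA, whose core is AGGTCA, and its neighbour GTAGGTTA, a letter string that was picked after the window had been read.
Arntl, chr7:113207261-113207560, plus strand: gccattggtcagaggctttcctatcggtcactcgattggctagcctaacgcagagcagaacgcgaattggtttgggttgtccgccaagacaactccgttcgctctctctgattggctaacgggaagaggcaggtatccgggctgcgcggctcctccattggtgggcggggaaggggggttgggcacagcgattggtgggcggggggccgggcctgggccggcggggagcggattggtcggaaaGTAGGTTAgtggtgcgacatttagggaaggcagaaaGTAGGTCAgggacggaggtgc
Clock, chr5:76304743-76305042, minus strand: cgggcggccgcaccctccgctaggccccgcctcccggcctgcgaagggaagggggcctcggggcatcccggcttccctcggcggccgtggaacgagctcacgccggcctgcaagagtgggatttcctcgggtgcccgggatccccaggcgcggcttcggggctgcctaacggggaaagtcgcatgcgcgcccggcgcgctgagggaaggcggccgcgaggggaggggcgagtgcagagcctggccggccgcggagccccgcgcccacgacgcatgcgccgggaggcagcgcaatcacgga
Npas2, chr1:39194022-39194321, plus strand: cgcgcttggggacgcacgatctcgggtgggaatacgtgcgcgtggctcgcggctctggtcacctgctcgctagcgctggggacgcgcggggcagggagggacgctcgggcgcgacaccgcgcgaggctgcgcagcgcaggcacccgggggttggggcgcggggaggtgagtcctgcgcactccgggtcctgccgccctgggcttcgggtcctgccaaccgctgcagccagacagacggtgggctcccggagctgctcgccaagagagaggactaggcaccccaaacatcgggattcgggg
GTAGGTCA lies at chr7:113207540-113207547 and GTAGGTTA at chr7:113207504-113207511 in the Arntl window. Searched on both strands of all 32851 promoter windows, AGGTCA was present in 16.3%, GTAGGTCA, which contains it, in 0.621%, GTAGGTTA in 0.317%, and both longer strings on the same strand in 0.00609%, which is 2 windows. The printed Clock and Npas2 windows hold none of these letters on either strand, and another window of Clock holds AGGTCA at chr5:76303616-76303621, on the strand opposite to the gene. CACGTG, the E-box, was present in 7.15% of all windows and in 0 of the 6 windows of these 3 genes.

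Recovered reads came to 29.5 to 53.1 M per library, and the ranges of the regimens overlapped. Markers of cardiomyocytes (5 of 5 genes listed) summed to 16900 to 23851 TPM under DRF and 20102 to 28973 TPM under NRF, with none at 0 in any library, so the tissue matched its label. Summed atrial markers (5 of 5 listed) ranged from 94.9 to 5482 TPM under DRF and from 129 to 4395 TPM under NRF, and erythroid markers (3 of 3 listed) from 1508 to 57894 and from 1298 to 34439 TPM. The other 6 marker lists, with 22 of 23 genes listed, had overlapping ranges between regimens. The medians of the atrial sums were 1803 TPM under DRF and 608 TPM under NRF, with Bmp10 at 0 in at least 1 library of each regimen and Sln at 0 in a DRF library. Mitochondrial transcripts took 21.7 ± 1.46% of reads (SD, n = 28) under DRF and 20.4 ± 1.57% under NRF. The part of these values in the results on the activators was not tested. Over the 1000 genes that differed most between groups, leaving out all clock genes, 53 of 56 libraries lay nearest to their own time and regimen, with ZT0 and ZT24 taken as the same time. The library labelled DRF ZT4 replicate 1 lay at a distance of 0.388 (root mean square, log2) from its own group and 0.184 from NRF ZT8. The library labelled NRF ZT8 replicate 1 lay at 0.371 from its own group and 0.185 from DRF ZT4. For the other 54 libraries the distance to the own group was 0.138 to 0.292, and the remaining library, NRF ZT4 replicate 1, was at 0.29 from its own group and 0.268 from NRF ZT24. Each of the 2 thus lay nearest to the group that the other is labelled with. Whether their labels were exchanged was not tested, all libraries were kept under their labels, and the main results on the activators that rest on ZT4, ZT8 or the fit over the day are given with and without them.

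Under NRF Arntl had the highest ratio of highest to lowest mean of the 3 genes, and under DRF its ratio was close to that of Npas2. Under NRF its mean level was 12.4 ± 1.58 TPM (SD, n = 4) at ZT0 and 0.27 ± 0.148 TPM at ZT12, a ratio of 46 ± 13 (SE). Under DRF the highest mean was 9.05 ± 1.29 TPM at ZT24 and the lowest 1.28 ± 0.287 TPM at ZT12, a ratio of 7.08 ± 0.941. The NRF trough rested on 19 to 58 reads per library and the DRF trough on 130 to 284.

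At ZT0 the 4 NRF libraries read 14.8, 11.9, 11.6 and 11.3 TPM of Arntl, and the 4 DRF libraries 6.5, 7.42, 7.94 and 6.79 TPM. At ZT12 the NRF libraries read 0.481, 0.203, 0.14 and 0.255 TPM against 1.33, 1.02, 1.66 and 1.1 TPM under DRF. At ZT16 they read 0.91, 1.06, 0.747 and 1.68 TPM against 2.49, 3.91, 2.65 and 2.53 TPM. Every NRF library stood above every DRF library at ZT0, as for 10.4% of all genes, and every one stood below at ZT12 (2.61% of genes) and ZT16 (1.76%). At ZT4 the NRF libraries read 10, 9.14, 8.51 and 10.4 TPM and the DRF libraries 1.95, 6.19, 5.8 and 7.21 TPM. The lowest of these belongs to the library that lay nearest to NRF ZT8, and the other 3 DRF libraries were also below every NRF library, a separation seen in 1.07% of genes with all libraries and 4.51% without the 2. At ZT8 the NRF libraries read 5.99, 1.84, 0.883 and 1.93 TPM, the first being the library that lay nearest to DRF ZT4, and the DRF libraries 2.9, 2.5, 1.11 and 1.87 TPM. The groups overlapped there, as they did at ZT20 (4.72 to 6.81 TPM under NRF, 5.95 to 7.41 TPM under DRF) and ZT24 (10.6 to 14 and 7.81 to 10.6 TPM). In the order of mean levels under NRF, ZT0, ZT24, ZT4, ZT20, ZT8, ZT16 and ZT12, the ranges of ZT0 and ZT24, of ZT20 and ZT8, and of ZT8 and ZT16 overlapped. Under DRF the order was ZT24, ZT0, ZT20, ZT4, ZT16, ZT8 and ZT12, and every neighbour overlapped the next. Without the 2 libraries, ZT20 and ZT8 under NRF and ZT4 and ZT16 under DRF no longer overlapped.

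Clock ran at a higher trough and with a smaller swing than Arntl. Its NRF mean was 12.6 ± 1.46 TPM at ZT24 and 5.05 ± 0.238 TPM at ZT12, a ratio of 2.49 ± 0.156 (SE). Its DRF mean was 11.5 ± 1.17 TPM at ZT24 and 7.24 ± 0.486 TPM at ZT12, a ratio of 1.59 ± 0.0966. The ZT12 trough was thus the time at which the regimens stood furthest apart. At ZT12 the NRF libraries read 5.39, 4.91, 4.86 and 5.04 TPM of Clock and the DRF libraries 7.59, 7.3, 6.54 and 7.55 TPM. At ZT0 they read 13, 11.5, 10.5 and 12.1 TPM under NRF against 9.95, 8.82, 10.1 and 9.51 TPM under DRF. The groups were apart at ZT12, as for 2.61% of all genes, and at ZT0, as for 10.4%, and they overlapped at ZT4 (9.8 to 12.6 under NRF, 8.58 to 10.3 TPM under DRF), ZT8, ZT16, ZT20 and ZT24. Reads of Clock numbered 1014 to 3359 per library, the most of the 3 genes. Mean levels under NRF fell in the order ZT24, ZT0, ZT4, ZT20, ZT8, ZT16 and ZT12, where only ZT16 and ZT12 had ranges that did not overlap their neighbour's. Under DRF, in the order ZT24, ZT20, ZT0, ZT4, ZT16, ZT8 and ZT12, every range overlapped the next. Without the 2 libraries, ZT20 and ZT8 under NRF were apart.

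Npas2, which can stand in for CLOCK as the partner of BMAL1, had the lowest mean level of the 3 over all libraries and, under NRF, the latest trough. Under NRF its mean was 5.27 ± 1.16 TPM at ZT4 and 0.468 ± 0.114 TPM at ZT16, a ratio of 11.3 ± 1.85 (SE). Under DRF its mean was 5.15 ± 0.504 TPM at ZT24 and 0.713 ± 0.0603 TPM at ZT12, a ratio of 7.23 ± 0.468. The trough means rested on 26 to 61 reads per library under NRF and 48 to 75 under DRF. At ZT4 the NRF libraries read 4.42, 5.35, 4.43 and 6.87 TPM of Npas2 and the DRF libraries 1.35, 3.41, 3.14 and 3.48 TPM. At ZT20 they read 1.08, 1.4, 0.971 and 1.2 TPM under NRF against 2.1, 2.06, 2.26 and 3.19 TPM under DRF. The NRF libraries were thus the higher at ZT4 and the lower at ZT20, with no overlap at either time (1.07% of genes were apart in this direction at ZT4 and 4.36% at ZT20), and with no overlap at ZT4 also when the DRF library that lay nearest to NRF ZT8 was left out (4.51% of genes without the 2 libraries). At ZT16 the NRF libraries read 0.488, 0.448, 0.606 and 0.329 TPM and the DRF libraries 0.806, 0.935, 0.678 and 0.68 TPM, again apart, as for 1.76% of genes. At ZT8 the library labelled NRF replicate 1 read 3.81 TPM, the other 3 NRF libraries 0.76 to 1.37 TPM and the DRF libraries 1.06 to 1.45 TPM. The ranges overlapped at ZT0 (3.94 to 5.84 TPM under NRF, 4.34 to 5.15 TPM under DRF), ZT8, ZT12 and ZT24. The order of mean levels was ZT4, ZT0, ZT24, ZT8, ZT20, ZT12 and ZT16 under NRF, where only ZT20 and ZT12 were neighbours without overlap, joined by ZT24 and ZT8 without the library labelled NRF ZT8 replicate 1. It was ZT24, ZT0, ZT4, ZT20, ZT8, ZT16 and ZT12 under DRF, where ZT0 and ZT4, ZT20 and ZT8, and ZT8 and ZT16 did not overlap.

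**Figure D1:**
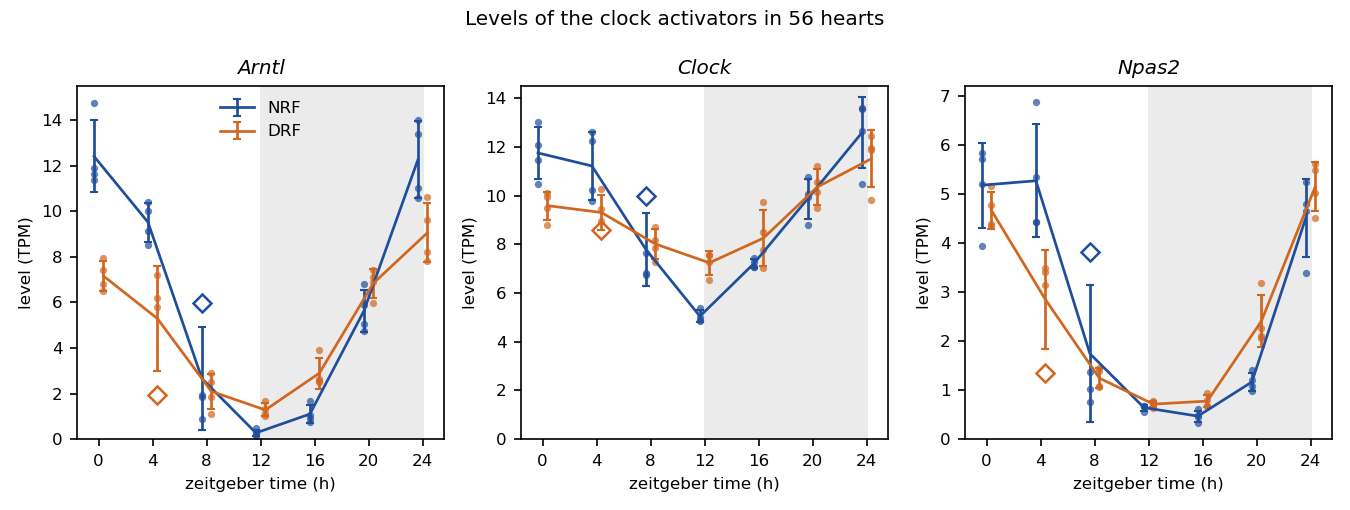
Levels in TPM (y axis) of Arntl, Clock and Npas2 against zeitgeber time in hours (x axis, darkness shaded). Points are single libraries, lines and bars are the mean and SD of 4 libraries for NRF (blue) and DRF (orange), and open diamonds are the 2 libraries that lay nearest to another group. The DRF means of Arntl and Clock sit above the NRF means at ZT12 and below them at ZT0, and those of Npas2 sit below at ZT4 and above at ZT20.

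All 3 activators kept a 24-h rhythm under both regimens, with a peak near lights on. The fit of a 24-h wave to log2(TPM + 1) within each regimen (limma's moderated F test, Benjamini-Hochberg adjustment over all genes) gave Arntl an adjusted p of 1.19e-14 under NRF and 9.14e-10 under DRF, Clock 2.83e-10 and 1.3e-05, and Npas2 9.13e-11 and 7.37e-11. Among all genes, 37.2% were called rhythmic under NRF, 32.3% under DRF and 17.5% under both. With those 2 libraries left out, all 6 calls held and the largest adjusted p was 1.66e-05, for Clock under DRF, against 42.8% and 30% of genes.

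The shape of the rhythm differed between the regimens for each of the 3 genes. The test of the difference in the 24-h wave gave an adjusted p of 3.2e-07 for Arntl, 8.68e-05 for Clock and 0.0015 for Npas2, and 27.5% of all genes passed it. With those libraries left out, the values were 7.16e-10, 1.63e-05 and 0.0051, against 30.6% of genes. For Npas2 the call was lost when ZT4 was left out (adjusted p = 0.0551).

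Amplitude fell for Arntl and Clock. The fitted amplitude of Arntl was 1.71 ± 0.0806 (SE, log2(TPM + 1)) under NRF and 1.01 ± 0.0806 under DRF, a difference of -0.70 ± 0.114 with an adjusted p of 3.47e-05. That of Clock was 0.512 ± 0.0362 under NRF and 0.243 ± 0.0363 under DRF, a difference of -0.27 ± 0.0513 with an adjusted p of 0.000387. That of Npas2 was 1.16 ± 0.0749 under NRF and 0.925 ± 0.0718 under DRF, a difference of -0.23 (95% interval -0.44 to -0.02) with an adjusted p of 0.283. Of the 2435 genes rhythmic under both regimens, 2.59% were called for a lower amplitude under DRF. In the other 54 libraries the differences were -0.73, -0.28 and -0.19, with adjusted p of 4.24e-09, 3.96e-05 and 0.252, against 4.47% of 2482 genes. The call of Clock was lost without ZT12, where its difference was -0.20 (adjusted p = 0.114).

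The peaks of Arntl and Npas2 were earlier under DRF. Arntl peaked at ZT0.857 ± 0.202 h (SE) under NRF and at ZT23.2 ± 0.343 h under DRF, a shift of -1.71 ± 0.398 h with an adjusted p of 0.000204, which was 0.0519 on the deposited scale. Npas2 peaked at ZT2.34 ± 0.258 h under NRF and at ZT0.572 ± 0.335 h under DRF, a shift of -1.77 ± 0.423 h with an adjusted p of 0.000276. Clock peaked at ZT0.533 ± 0.304 h and ZT23.2 ± 0.64 h, a shift of -1.32 h (95% interval -2.74 to 0.10 h) with an adjusted p of 0.0988. An earlier peak under DRF was called for 43.5% of the genes rhythmic under both regimens, so earlier peaks were common in this heart series. Without the 2 libraries the shift of Arntl was -1.17 ± 0.297 h (adjusted p = 0.00059), that of Npas2 -1.30 ± 0.362 h (adjusted p = 0.00155) and that of Clock -0.91 ± 0.67 h (adjusted p = 0.232), against 42.2% of genes. Every estimate thus shrank towards 0, and differences between the 3 shifts were not tested.

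**Figure D2:**
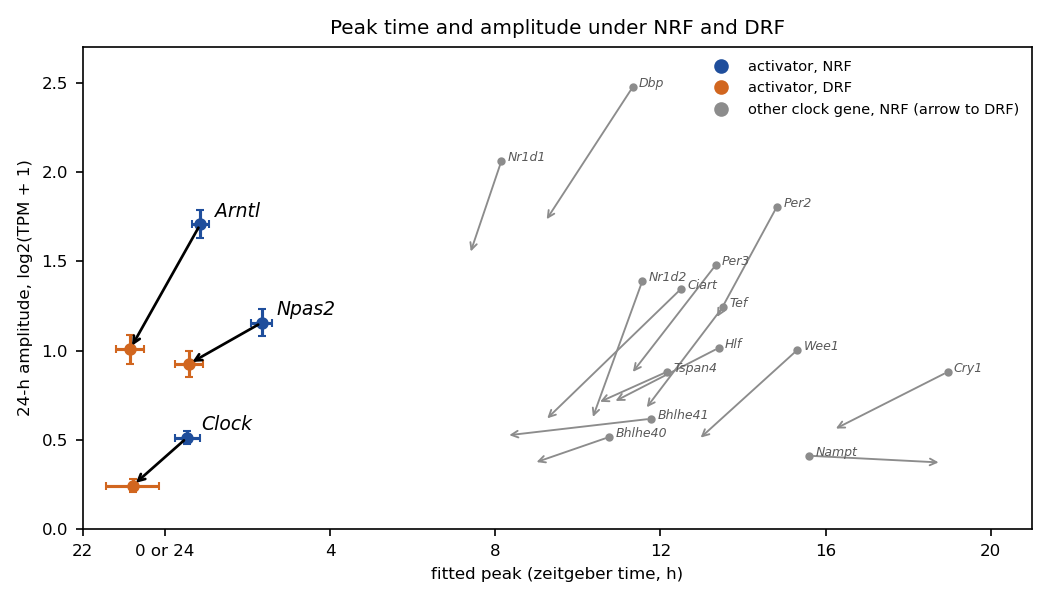
Fitted peak in zeitgeber hours (x axis) and 24-h amplitude on the log2(TPM + 1) scale (y axis), with arrows from NRF to DRF. Coloured points with SE bars are Arntl, Npas2 and Clock; grey arrows are the 14 other clock genes rhythmic under both regimens. The arrows of Arntl (amplitude 1.71 to 1.01), Clock (0.512 to 0.243) and Npas2 (1.16 to 0.925) all point down and to an earlier hour.

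The DRF profiles stayed closest to the NRF profiles of the same clock hour. The NRF profile was moved to earlier hours by 0, 4, 8, 12, 16 or 20 h. The root mean square difference of group means was lowest at 0 h for all 3 genes: 0.658 for Arntl, 0.233 for Clock and 0.421 for Npas2 (log2). At 12 h, the displacement of the feeding window, the differences were 1.91, 0.548 and 1.4. At 4 h they were 0.769, 0.288 and 0.458, so Npas2 was almost as close there as at 0 h. Over the other 54 libraries the values at 0 h were 0.608, 0.236 and 0.359 and those at 4 h 0.935, 0.313 and 0.596. These distances are descriptions with no test.

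The regimens were then compared at single times. Arntl was called at 3 of 7 ZTs (limma contrast of log2(TPM + 1), adjusted over all genes): -0.71 ± 0.231 (SE, DRF minus NRF) at ZT0 with an adjusted p of 0.0354, 0.84 ± 0.231 at ZT12 with 0.0179, and 0.90 ± 0.231 at ZT16 with 0.0146. In linear terms the DRF mean was 0.577 times the NRF mean at ZT0, 4.74 times at ZT12 and 2.63 times at ZT16. The contrast at ZT4, -0.84 ± 0.231, had an adjusted p of 0.0855, and was called with limma-voom on recovered reads (-1.01, adjusted p = 0.0302). Among all genes, 8.45% were called lower at ZT0, 1.29% higher at ZT12 and 0.648% higher at ZT16. Without the 2 libraries the 3 calls had adjusted p of 0.000806, 0.000209 and 0.000178, against 9.09%, 1.54% and 0.821% of genes, and ZT4 was -0.51 with 0.0641. The ZT0 call was lost when DRF ZT0 replicate 1, 2 or 4 or NRF ZT0 replicate 1, 2 or 3 was left out (adjusted p 0.0508 to 0.125), the ZT12 call without replicate 3 of either regimen (0.0813 without that of DRF and 0.0691 without that of NRF), and the ZT16 call without DRF replicate 2 (0.0549) or NRF replicate 3 (0.0574). The ZT0 call was also lost in 4 of 7 other settings (adjusted p 0.0545 to 0.411).

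Clock was called at 2 of 7 ZTs. It was higher under DRF at ZT12, by 0.45 ± 0.0913 with an adjusted p of 0.00197, a ratio of means of 1.44. It was lower at ZT0, by -0.27 ± 0.0913 with an adjusted p of 0.0486, a ratio of 0.816. The percentages of genes called in these directions are those given above, 1.29% and 8.45%. Over the other 54 libraries the adjusted p was 0.000395 at ZT12 and 0.026 at ZT0. The ZT12 call held in each alternative run and with any single library of that time left out. The ZT0 call lay close to the threshold, and was lost in 6 of 7 other settings (adjusted p 0.0501 to 0.163) and without DRF ZT0 replicate 1, 2 or 4 or NRF ZT0 replicate 1, 2 or 4 (0.063 to 0.186), as well as without some libraries of other times.

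Npas2 was called at 2 of 7 ZTs. It was lower under DRF at ZT4, by -0.73 ± 0.176 with an adjusted p of 0.0354 (ratio of means 0.54), where 0.115% of genes were called lower. It was higher at ZT20, by 0.64 ± 0.176 with an adjusted p of 0.0099 (ratio 2.06), where 3.38% of genes were called higher. Without the 2 libraries the ZT4 difference was -0.51 ± 0.12 with an adjusted p of 0.00789, against 1.79% of genes, and the ZT20 difference kept its size with 9.15e-05, against 4.02%. The ZT4 call was lost with the library labelled DRF ZT4 replicate 1 alone left out (-0.51, adjusted p = 0.0963), and also without DRF ZT4 replicate 3 (0.0688) or NRF ZT4 replicate 2 (0.0688) or 4 (0.166), and in 3 of 7 other settings (0.055 to 0.122). On the deposited scale Npas2 was also called higher at ZT16 (0.53, adjusted p = 0.02).

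**Figure D3:**
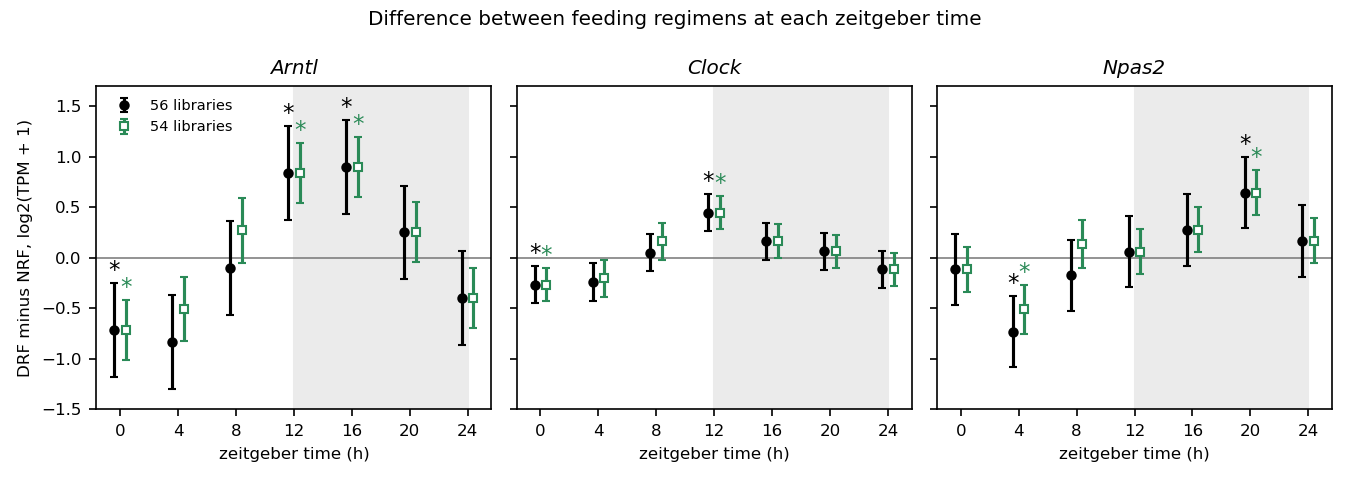
Difference DRF minus NRF in log2(TPM + 1) (y axis) at each zeitgeber time (x axis) with 95% intervals, for all 56 libraries (black circles) and for the 54 left without the 2 libraries that lay nearest to another group (green squares). Asterisks mark an adjusted p under 0.05: ZT0, ZT12 and ZT16 for Arntl, ZT0 and ZT12 for Clock, and ZT4 and ZT20 for Npas2, the same times with both sets of libraries.

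The directions of these backgrounds depend on the scaling. After median-of-ratios rescaling, 7.08% of genes were called lower at ZT0, 4.5% higher at ZT12, 2.09% higher at ZT16, 0.698% lower at ZT4 and 9.24% higher at ZT20. The share of higher among the called genes moved with it, for example from 16.9% to 42.4% at ZT12. The activators kept the directions given above, but the ZT0 calls of Arntl (adjusted p = 0.0557, limma contrast) and Clock (0.163) were lost. The exact permutation test of 4 against 4 libraries, which cannot go below p = 0.0286, reached that value (2-sided, unadjusted) for Arntl at ZT0, ZT4, ZT12 and ZT16, for Clock at ZT0 and ZT12, and for Npas2 at ZT4, ZT16 and ZT20. It does so wherever the 2 groups do not overlap, so it restates the separations above and adds no support. Their shares of genes are given above for 1 direction. In the other direction 5.15% of genes were apart at ZT0, 1.85% at ZT4, 10.9% at ZT12, 17.8% at ZT16 and 15.5% at ZT20.

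The mean level over the day was called for none of the 3 genes on log2(TPM + 1), relative to a median over all genes of -0.05. The DRF minus NRF value was 0.09 ± 0.0863 (SE, log2) for Arntl, 0.05 ± 0.0359 for Clock and 0.02 ± 0.0706 for Npas2, with adjusted p of 0.471, 0.281 and 0.851. Among all genes, 1.67% were called higher and 24.3% lower under DRF, and after median-of-ratios rescaling 5.82% and 7.34%. The value of Arntl depended on the scale and on the 2 libraries. It was called with a pseudocount of 0.1 TPM (0.35, adjusted p = 0.0349), on the deposited scale (0.30, 0.00205), with limma-voom (0.40, 0.041) and without replicate 1 (0.19, 0.0304). Without the 2 libraries it was 0.19 with an adjusted p of 0.0115, against 1.69% of genes called higher, and on untransformed TPM it was called in the other direction, at -0.939 TPM (adjusted p = 0.043). By permutation of regimen labels within ZT, the Arntl value without the 2 libraries did not pass (0.193, unadjusted p = 0.0882). Clock was called after median-of-ratios rescaling (0.11, adjusted p = 0.0493), and without the 2 libraries its value was 0.08 (0.0753) and that of Npas2 0.10 (0.143).

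No change from ZT0 to ZT24 was called in any of the 3 genes. For Arntl it was -0.02 ± 0.231 (SE, log2) under NRF and 0.30 ± 0.231 under DRF. For Clock it was 0.09 ± 0.0913 and 0.24 ± 0.0913, and for Npas2 -0.16 ± 0.176 and 0.12 ± 0.176. The smallest adjusted p was 0.26, for Clock under DRF, where the unadjusted p was 0.0124. Among all genes, 0.425% passed under DRF and 0.0576% under NRF. The differences between regimens at ZT0 were not called at ZT24 for Arntl (-0.40, adjusted p = 0.284) or Clock (-0.12, adjusted p = 0.457), and the difference between the 2 times was not tested.

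The balance between the activators was measured within each library as a ratio of TPM, which compares levels per length. Arntl stood close to Clock at lights on under NRF and well below it at ZT12. At ZT0 the Arntl to Clock ratio was 1.13, 1.04, 1.11 and 0.94 in the NRF libraries and 0.653, 0.842, 0.786 and 0.714 in the DRF libraries. At ZT12 it was 0.0892, 0.0414, 0.0288 and 0.0506 under NRF and 0.175, 0.14, 0.254 and 0.146 under DRF. The groups did not overlap at either time, and the range of the ratio over the day was narrower under DRF. The size of the difference between the 24-h waves of the log2 ratio under NRF and DRF was 1.05 (permutation of regimen labels within ZT, 2-sided, p = 1e-05, the smallest that 100000 permutations can give), and 0.955 without the 2 libraries (p = 1e-05).

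Npas2 stood below Arntl in every library outside NRF ZT12. At ZT12 under NRF the Npas2 to Arntl ratio was 1.41, 3.35, 4.71 and 2.17, whereas at ZT12 under DRF it was 0.577, 0.74, 0.415 and 0.58, and in the 52 libraries outside NRF ZT12 it lay between 0.195 and 0.976. The difference between its 24-h waves had a size of 1.03 (permutation p = 1e-05), and 1.03 without the 2 libraries (p = 2e-05). The NRF values at ZT12 rest on 19 to 58 reads of Arntl and 47 to 57 of Npas2. For Npas2 to Clock the size was 0.693 (permutation p = 8e-05), and 0.52 without the 2 libraries (p = 0.00042). At ZT20 the Npas2 to Clock ratio was 0.109, 0.13, 0.11 and 0.12 under NRF and 0.222, 0.202, 0.213 and 0.284 under DRF. The 3 activators thus did not change by the same factor at the same times, for each of the 3 pairs tested. Adjusted over these 3 tests by the Benjamini-Hochberg method, the permutation p was 1.5e-05 for Arntl to Clock, 1.5e-05 for Npas2 to Arntl and 8e-05 for Npas2 to Clock.

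The mean of the ratios over the day was not called different for any pair. The log2 mean DRF minus NRF was 0.17 for Arntl to Clock (permutation p = 0.274), 0.08 for Npas2 to Clock (p = 0.476) and -0.09 for Npas2 to Arntl (p = 0.542). With those libraries left out, these were 0.27 (permutation p = 0.0411), 0.16 (p = 0.0517) and -0.11 (p = 0.456). Adjusted over the 3 ratios, the smallest p was 0.0775 there and 0.542 with all libraries.

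**Figure D4:**
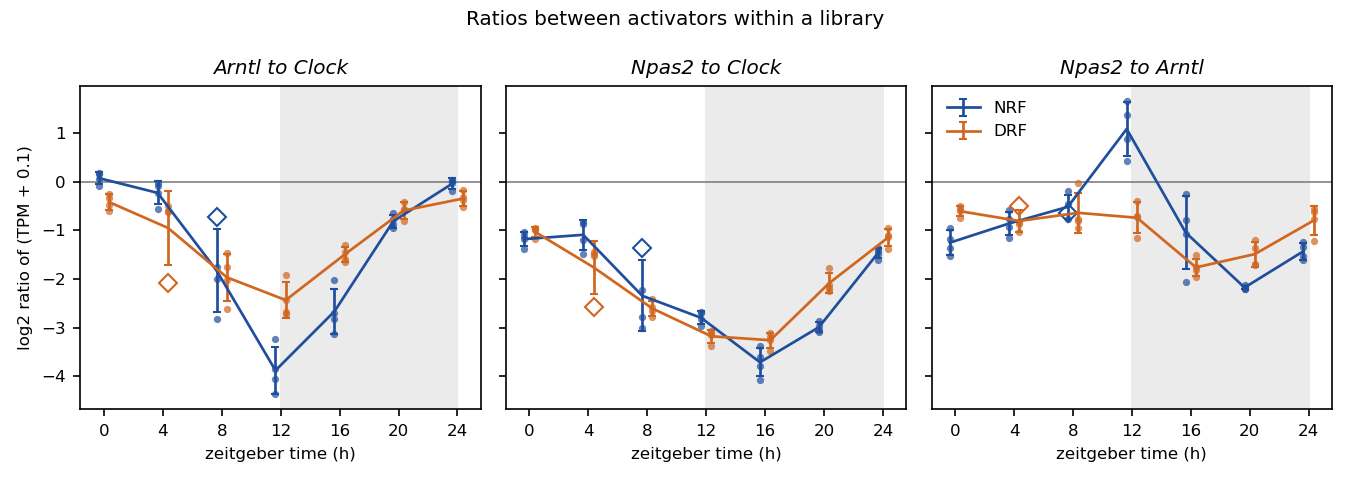
Log2 ratio of TPM + 0.1 (y axis) between activators within a library against zeitgeber time (x axis, darkness shaded). Points are libraries, lines and bars the mean and SD of 4 libraries under NRF (blue) and DRF (orange), and open diamonds the 2 libraries that lay nearest to another group. Npas2 to Arntl lies above 0 in the 4 NRF libraries at ZT12 and below 0 in the other groups, and Arntl to Clock at ZT12 is lower under NRF than under DRF.

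Within groups, libraries with more of an activator than their group mean tended to have more of the others. The correlation of deviations from the group means over 56 libraries was 0.775 between Arntl and Npas2, 0.65 between Clock and Npas2 and 0.596 between Arntl and Clock. In the other 54 libraries it was 0.4, 0.543 and 0.466. The points share library, depth and scaling, and the values are descriptions.

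Over the 14 group means the gene most like Arntl of 13889 was Clock (Pearson r = 0.978, also the first match of Clock), and Npas2 ranked 16th for Arntl (r = 0.898) and 40th for Clock (r = 0.836). Apart from the activators, the genes most like Arntl were Dtx4 (r = 0.954), Leo1 (0.954), which encodes a subunit of the PAF1 transcription elongation complex, Rhoj (0.947), Foxs1 (0.939), a forkhead factor, and Cavin4 (0.934), a caveolar protein of muscle. Those most like Clock were Leo1 (0.954), Rims4 (0.932), Dtx4 (0.927), Cavin4 (0.924) and Rhoj (0.91), so that 4 of the 5 stood in both sets. Those most like Npas2 were Wsb1 (0.947), Adamts4 (0.938), a secreted protease, Fads6 (0.913), Daam2 (0.911), a formin, and Rnft1 (0.909). Leo1 peaked at ZT0.746 under NRF and ZT0.109 under DRF, with amplitudes of 0.721 and 0.249 and a different rhythm between regimens (adjusted p = 6.43e-09). Dtx4 had amplitudes of 0.326 and 0.302, and its test of a different rhythm gave an adjusted p of 0.146.

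Period genes and clock output factors were among the genes with opposite profiles. The lowest r with Arntl were those of Per3 (-0.981), a Period gene, and of Hlf (-0.968) and Tef (-0.967), PAR-bZIP factors driven by the clock. For Npas2 they were Per2 (-0.948), Tef (-0.928) and Per3 (-0.924). For Clock they were Ephx1 (-0.966), an epoxide hydrolase, Gdf10 (-0.964), a ligand of the TGF-β family, and Ccbe1 (-0.962), a secreted factor of lymphatic growth. All r are over 14 means that share libraries and the time axis. When r was taken over the 56 libraries instead, 2 of the 5 genes named for Arntl, 2 for Clock and 1 for Npas2 stayed among the first 5. With the 2 libraries left out, r over the 14 means was 0.977 between Arntl and Clock, 0.905 between Arntl and Npas2 and 0.841 between Clock and Npas2.

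Most of the listed genes that the activators drive, and of their repressors, had a different rhythm between regimens. Of 18 clock repressors and targets, all tested, 17 passed, beside 27.5% of all genes, the exception being Bhlhe40 (adjusted p = 0.231), and the fitted amplitude was lower under DRF in 18 of 18, beside 51.9% of all genes. The median amplitude difference of the list was -0.52 (log2) and that of all genes -0.00330. All 18 were rhythmic under NRF, beside 37.2% of all genes, so these values compare unlike sets of genes. The 4 with the smallest p were Usp2, a deubiquitinase (amplitude 0.777 under NRF and 0.126 under DRF, adjusted p = 4.81e-09), Cry2, a cryptochrome repressor (0.603 and 0.113, 4.16e-08), Per3 (1.48 and 0.862, 1.31e-07) and Nr1d2 (1.39 and 0.606, 1.82e-07). Usp2 read 63.9 ± 5.54 TPM (SD, n = 4) at ZT12 under NRF and 40.9 ± 5.43 TPM under DRF. Cry2 read 19.4 ± 1.53 TPM at ZT12 under NRF and 13.8 ± 1.5 TPM under DRF. Of the 14 rhythmic under both regimens, 13 peaked earlier under DRF, by a median size of 2.11 h over the 14, beside 65.3% earlier and a median size of 3.82 h for all such genes. These amplitude and shift counts are over all 56 libraries.

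The next list holds the receptors and genes of the REV-ERB and ROR element, through which the activators are themselves controlled. Of its 10 genes 7 were tested, and 7 of 7 had a different rhythm, beside 27.5% of all genes. All 7 were also rhythmic under NRF, beside 37.2% of all genes, so here too the sets are unlike. The count was 4 without replicate 2 and 3 without replicate 3, where the number over all 13890 genes also fell, from 3820 to 2218 and 1853. Nr1d2 was 10.3 ± 3.5 TPM at ZT0 and 81.5 ± 3.96 TPM at ZT12 under NRF, and 28.4 ± 3.49 and 56.1 ± 5.02 TPM under DRF, with a peak at ZT11.6 and ZT10.3. Nfil3, a bZIP repressor, was 38.5 ± 3.9 TPM at ZT0 and 7.2 ± 0.888 TPM at ZT12 under NRF, and 16.1 ± 1.81 and 15.3 ± 2.66 TPM under DRF (adjusted p = 1.15e-06). Cry1 had amplitudes of 0.88 and 0.553 and a shift of -2.80 ± 0.535 h (adjusted p of the different rhythm 1.51e-05). Nr1d1 had amplitudes of 2.06 and 1.53 and peaked at ZT8.15 and ZT7.37 (adjusted p of the different rhythm 0.00304).

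Of 16 bHLH-PAS genes, the close relatives of the activators, 14 were listed and 8 tested, and 3 of the 8 had a different rhythm, beside 27.5% of all genes, with 1 called without replicate 2 and 0 without replicate 3. The 3 were Ncoa3 (adjusted p = 0.0039), Ncoa1 (0.0224) and Hif1a (0.0234). Ncoa3 and Ncoa1 encode coactivators, and Hif1a the hypoxia-inducible partner of ARNT. Ncoa2, the next, had an adjusted p of 0.0582. Arntl2 (Bmal2), the paralogue of Arntl, was at group means of 0.934 to 1.47 TPM, and passed neither the test of rhythm under NRF (adjusted p = 0.453) or DRF (0.683) nor that of a different rhythm (0.564). Of 25 genes for kinases, acetylases, ubiquitin ligases and cofactors known to act on CLOCK or BMAL1, 24 were listed and 23 tested, and 11 had a different rhythm, beside 27.5% of all genes, with 6 called without replicate 2 and 4 without replicate 3. Those with the smallest p included Cipc, an inhibitor of CLOCK (amplitude 0.443 under NRF and 0.0816 under DRF, adjusted p = 4.01e-08), Thrap3 (3.61e-06) and Sirt1, a deacetylase (0.000258). Cipc read 33.9 ± 2.73 TPM at ZT12 under NRF and 24.7 ± 2.89 TPM under DRF. Without the 2 libraries that lay nearest to another group, the counts were 17, 7, 4 and 12 for the 4 lists, beside 30.6% of all genes. All 4 lists were drawn up with earlier results of these data known, and the counts are descriptions.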

How the data were processed

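Heart polyA RNA libraries were made with a NEBNext Ultra kit and sequenced as paired ends. The submitters' processing notes name HISAT2 2.0.5, featureCounts 1.5.0-p3 and the mm10 genome; whether counting used strand is not given in the sources used here. The deposited values, called TPM, are the authors' own unit: they were found to be a log2 of scaled reads divided by gene length, and are not linear. With union exon lengths of the GENCODE M21 annotation, 21966 of 22864 genes (96.1%), the 3 activators among them, gave values within 0.1 of a whole read. For 835 genes a length was searched that gives whole reads, 60 abundant genes kept the annotated length, and 3 were left out. At these lengths, some of them chosen for it, 100% of values under 30000 reads were whole within that tolerance. TPM was recomputed from the reads. Per library 29.5 to 53.1 M reads were recovered.

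Values were tested as log2(TPM + 1) for the 13890 genes averaging 1 TPM or more, with limma 3.58.1 in R 4.3.3 over all 56 libraries. A 24-h cosine and sine were fitted per regimen. Rhythm within a regimen, on its 28 libraries, and its difference, on all 56, were moderated F tests. Shift and amplitude used limma's moderated variance (adjusted over genes rhythmic under both regimens). Single times used the 14 group means. The mean level was the regimen effect in a model with 1 mean per ZT and a 24-h wave for the difference between regimens. P-values were Benjamini-Hochberg adjusted over all genes and called under 0.05. Fold changes on this scale understate changes of low genes. Ratios used a pseudocount of 0.1 TPM and 100000 permutations of regimen labels within ZT. The steps were tested on simulated data. Alternatives covered pseudocount, scaling, filter, limma-voom on the recovered reads, harmonics, and replicates or times left out; leaving out the 2 libraries, the Npas2 to Arntl ratio and the 24-h test of ratios were chosen after seeing the data.

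Genes named were the 3 activators, the 5 highest and 3 lowest by r for each, up to 4 per list by p, and Arntl2. An item that this rule names is not reported here. The members and lists were chosen with earlier results of these data known. Marker genes were used only to check the tissue.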

Additional observations from a re-analysis of the deposited data

Results flagged for a closer look

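In 4 of the 42 sets of 4 libraries (3 genes in 14 groups), 1 library lay far from the other 3, where chance alone does so in about 1 of 20 sets. Arntl was highest in NRF ZT0 replicate 1, at 14.8 TPM against 11.3 to 11.9 TPM in the other 3 libraries. Arntl was highest in DRF ZT16 replicate 2, at 3.91 TPM against 2.49 to 2.65 TPM. The call of Arntl at ZT0 was lost without the first of these (adjusted p = 0.125, limma), as it was without any of 5 other libraries of that time, and its call at ZT16 without the second (0.0549) or without NRF ZT16 replicate 3 (0.0574). Npas2 was lowest in NRF ZT12 replicate 4, at 0.554 TPM against 0.659 to 0.68 TPM, and in the library labelled DRF ZT4 replicate 1, at 1.35 TPM against 3.14 to 3.48 TPM. The last of these is the library that lay nearest to NRF ZT8 over genes outside the clock.

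The difference in rhythm between DRF and NRF passed its test for all 3 activators, with adjusted p (limma) of 3.2e-07 for Arntl, 8.68e-05 for Clock and 0.0015 for Npas2.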

How the results depend on the processing

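Of 1033 values recomputed under an alternative, 927 kept their side of the threshold (or, for counts, stayed within 1.5 times). Another 36 fell short of it, 17 passed it newly, 52 moved and 1 reversed. A change of direction was counted only for a value called in at least 1 of the 2 runs. Uncalled values among the 927 could thus change sign, as the Npas2 mean level did (-0.0168 to 0.105 with each replicate number left out). The reversed value was the mean level of Arntl on untransformed TPM, -0.939 TPM (adjusted p = 0.043). That mean level was also called with a pseudocount of 0.1 TPM (0.348), on the deposited scale (0.298), with limma-voom on recovered reads (0.396), without the 2 libraries (0.191) and without replicate 1 (0.193, range 0.0184 to 0.193 with each replicate number left out). On the deposited scale the Arntl shift was no longer called (-1.71 h, adjusted p = 0.0519), while the Clock shift (-1.91 h) and the Npas2 amplitude (-0.259) were. The Clock shift also passed after median-of-ratios rescaling (-1.93 h), without ZT16 (-1.91 h) and by permutation (-1.32 h, unadjusted p = 0.0358), the Npas2 amplitude by permutation (-0.232, unadjusted p = 0.00364), and the Clock mean level after rescaling (0.108, adjusted p = 0.0493). By permutation without the 2 libraries, the Clock shift was -0.906 h (unadjusted p = 0.124) and the Npas2 amplitude -0.196 (0.00345). The Arntl mean level was then 0.193 (unadjusted permutation p = 0.0882). Without ZT12 the Clock amplitude difference was -0.199 and without ZT4 the Npas2 difference in rhythm had an adjusted p of 0.0551. The number of ZTs called was 1 for Clock with a pseudocount of 0.1 TPM, the deposited scale, rescaling, limma-voom and no filter, and 1 for Npas2 with that pseudocount and no filter, against 2 each. With single libraries left out it ranged from 1 to 2 for both. The difference DRF minus NRF in mean log2 ratio passed newly without ZT4 for Npas2 to Clock (0.199, unadjusted permutation p = 0.0485) and Arntl to Clock (0.315, unadjusted p = 0.0477), and for the latter also without the 2 libraries (0.273, unadjusted p = 0.0411). Genes with a different rhythm numbered 3 to 7 of the REV-ERB and ROR list, 0 to 2 of the bHLH-PAS relatives and 4 to 9 of the regulators with each replicate number left out. Over all 13890 genes, 1853 to 3283 passed in those runs. Without a filter 5 of the 14 listed relatives passed, beside 3724 of 22861 genes. The cause of these changes was not tested.

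Among all genes, 3820 had a different rhythm, against 2218 without replicate 2, 1853 without replicate 3 and 2392 without ZT12. Genes called higher under DRF made up 6.43% of those called for mean level, 19.6% on the deposited scale and 44.2% after rescaling. At ZT4, 16 genes were called lower, against 86 on the deposited scale, 97 after rescaling, 57 with limma-voom and 249 without the 2 libraries. At ZT12, 179 were called higher, against 625 after rescaling and 486 with limma-voom. At ZT16, 90 were called higher, against 136 on the deposited scale, 290 and 181. At ZT20, 469 were called higher, against 1320 on the deposited scale and 1283 after rescaling.

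Same-numbered libraries did not deviate together: of 28 pairs 1 had a correlation of deviations over 0.1, with a median of -0.0325. The labels do not say what the replicate numbers mean, and low correlations alone cannot show that these numbers pair no samples. Whether the numbers pair samples in a way that leaves no such correlation was not tested. With a replicate block the number of ZTs called for Clock was 1, since the ZT0 call had an adjusted p of 0.0501, and 3800 genes had a different rhythm.

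Depth limits the troughs most, where Arntl under NRF rested on 19 to 58 reads per library. Counting error is only part of that spread, and reads without molecular identifiers are not independent molecules.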
